A study of Mus musculus with 36 samples.

Results

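Mitral and tufted cells are the projection neurons of the olfactory bulb, and the 7 genes described here (Tbx21, Eomes, Slc17a6, Slc17a7, Cdhr1, Reln and Cck) are genes by which these cells are commonly recognised. The genes were taken by symbol as a list and not by a cut on their measured values, but earlier results of these data were known when they were chosen. They are 7 of the 24581 genes that had a symbol in the tables of all 3 tissues. The data are 36 RNA-seq libraries, 12 each from the main olfactory epithelium (MOE), the vomeronasal organ (VNO) and the olfactory bulb (OB) of C57BL/6 mice. The mice were weaned at 3 weeks, kept 4 to a cage, and dissected at 6 months of age. In each tissue there were 3 libraries from each of 4 groups, namely females housed without males (sex-separated females, SF), males housed without females (SM), females caged with males (sex-combined females, CF) and males caged with females (CM). No mutation or drug distinguished the groups. The housing was meant to vary exposure to odors of the opposite sex, and separated cages stood in single-sex rooms. Combined mice also bred, and the methods text states that their pups were euthanized soon after birth. Every library was made from ribosome-depleted total RNA that had been pooled from more than 1 mouse, so each replicate is a pool, and the labels and the methods text disagree on how many mice a pool held.

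Mitral and tufted cells receive input from the axons of olfactory sensory neurons in the glomeruli, release glutamate, and send the output of the bulb to the olfactory cortex. Their cell bodies lie in the bulb, whereas MOE and VNO hold the sensory neurons and their supporting cells. None of the 7 genes is restricted to these cells across the body. Because whole tissue was measured, fewer cells of a type and less RNA per cell cannot be told apart.

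Levels are given as FPKM (fragments per kilobase of transcript, relative to all mapped fragments of a library), summed over the listed transcripts of a gene. FPKM is scaled to length, so levels of different genes can be set side by side, but the tables of the 3 tissues were made separately. The fragments behind the values were estimated from the deposited confidence limits. They summed to 3592962 to 6437263 per library in OB, 3016524 to 5902159 in MOE and 3373400 to 6779893 in VNO. The library with the lowest sum was MOE-CM3, and OB-SM1 was the lowest of the OB libraries. These sums are not the aligned read pairs that the paper lists. Those were higher in every library, and MOE-CF1 had the fewest of the MOE libraries. Differences were tested with limma on log2(FPKM + 0.5) over all genes that averaged 0.5 FPKM or more, and an adjusted p under 0.05 is called. This scale understates the change of genes with low values.

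In OB, Cck had the highest level of the 7 genes (127.9 ± 12.7 FPKM, SD, n = 12 libraries), followed by Slc17a7 (58.9 ± 5.44, n = 12). Reln (26.2 ± 2.60, n = 7) and Cdhr1 (24.1 ± 2.60, n = 12) came next, and their ranges of 23.6 to 30.9 and 18.9 to 27.1 overlapped. Eomes followed at 11.4 ± 0.968 (n = 12). Slc17a6 (5.11 ± 0.616, n = 12) and Tbx21 (4.79 ± 0.286, n = 12) were lowest, and their ranges overlapped as well. The coefficient of variation over the 12 libraries was lowest for Tbx21 (5.98%) and highest for Slc17a6 (12.1%). The sum of the 7 levels was 233.7 to 285.4 FPKM in OB, 22.2 to 35.8 in MOE and 11.8 to 16.0 in VNO. For this sum the 5 Reln entries in OB that Cufflinks did not mark as OK were kept as listed.

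**Figure D1:**
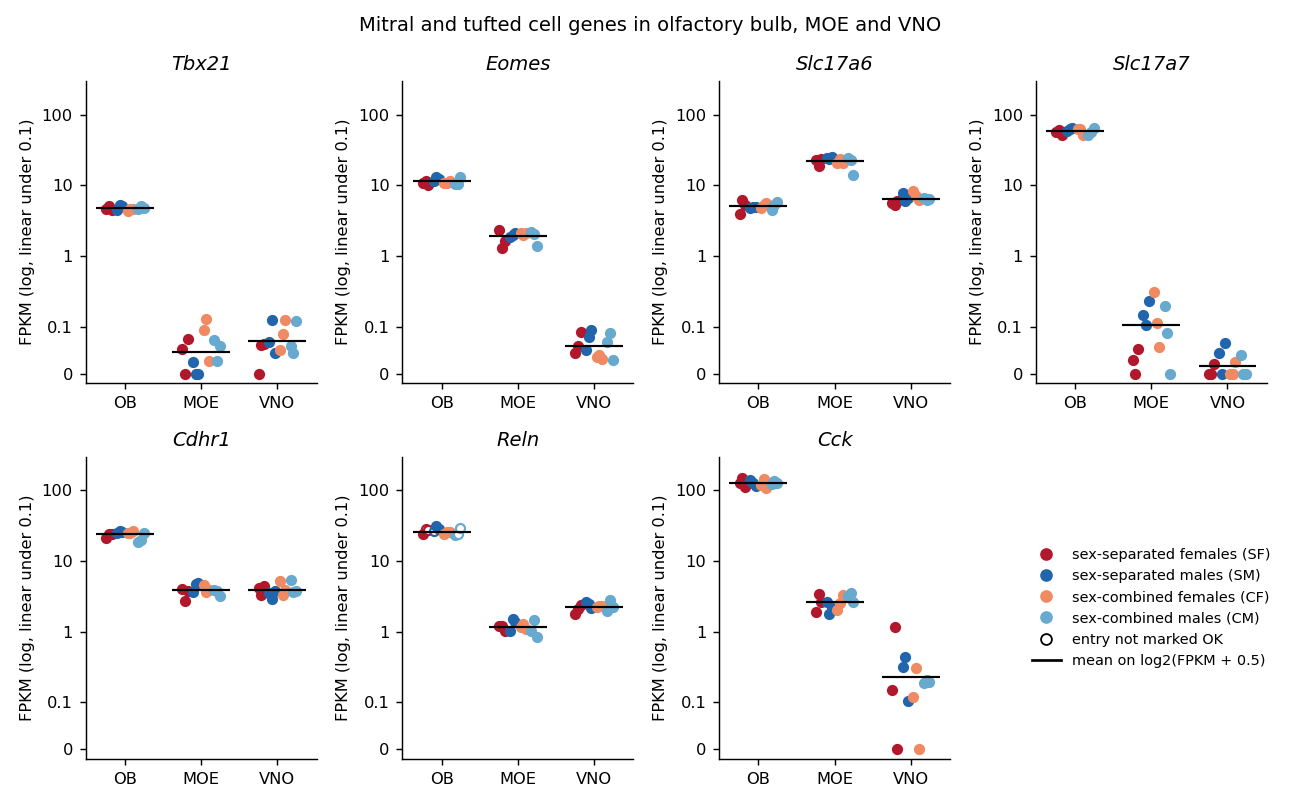
FPKM of each gene in every library of OB, MOE and VNO, on an axis that is logarithmic above 0.1 and linear below it, with points coloured by group, open points for entries that Cufflinks did not mark as OK, and a bar at the mean on log2(FPKM + 0.5). Slc17a6 is the one gene of the 7 whose highest points are in MOE (14.1 to 25.1 FPKM), and the other 6 genes are highest in OB.

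All 7 genes passed the filter of the fit over the 36 libraries, of which Tbx21 and Slc17a7 passed through OB alone and Eomes and Cck through OB and MOE. Between OB and MOE, 6 genes were called higher in OB and Slc17a6 was called lower, in a fit that called 85.1% of 14634 genes (39.3% higher and 45.7% lower in OB). Between OB and VNO the same 6 genes were called higher and Slc17a6 lower, where 85.8% of all genes were called (48% higher and 37.8% lower). The median log2 difference of the 7 genes was 3.28 between OB and MOE and 3.24 between OB and VNO, beside medians of -0.07 and 0.12 over all genes tested. Since most genes differed between whole tissues, the calls alone say little about the 7 genes or the other lists, and the levels below are the more informative part. Genes of any list that passed the filter through OB alone could hardly be other than higher in OB. Among the 7 these are Tbx21 and Slc17a7, and in other lists Doc2g and Cckbr are examples. Their calls against MOE and VNO add nothing to the levels. The comparisons share the libraries of a tissue and are not independent.

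The T-box transcription factors Tbx21 and Eomes act in the differentiation of mitral and tufted cells, and both are also known from T cells and natural killer cells. Tbx21 lies at chr11:96959321-96976645 of mm9, the build of the deposited loci. In OB its level ran from 4.34 to 5.20 FPKM with a median of 4.69. In MOE it was listed at 0 in 3 libraries and reached at most 0.13, with 21 estimated fragments over all 12 libraries together. In VNO it was listed at 0 in 1 library and reached at most 0.126, from 37.0 estimated fragments. Every OB library was thus above every MOE and VNO library, and 11 of 12 MOE libraries and 8 of 12 VNO libraries were at or below a floor of 3 fragments. The fitted difference between OB and MOE was 3.28 on the log2 scale (SE 0.0452), and it depends on the pseudocount because the MOE values are near 0. No p-value is given for it, since Tbx21 passed the filter through OB alone. MOE and VNO did not differ by a call (-0.06, 95% interval -0.155 to 0.03, adjusted p = 0.205 in limma).

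Eomes (chr9:118387307-118395250 of mm9), which is also known from intermediate progenitors of the developing cortex, had a different order of tissues below OB. In OB its level was 10.2 to 13.2 FPKM (median 11.2), against 1.31 to 2.32 in MOE (median 2.03) and 0.0289 to 0.0924 in VNO (median 0.0543). The ranges of the 3 tissues did not overlap. Each MOE library had an estimated 68.2 to 136.1 Eomes fragments, so the MOE level rested on a measurable number, whereas VNO libraries had 1.3 to 4.7. The level in OB was 5.94 times that in MOE (log2 difference 2.31, SE 0.0596, adjusted p = 3.77e-25 in limma), and MOE was above VNO by 2.11 on the log2 scale (adjusted p = 1.60e-23).

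The ratio of Eomes to Tbx21 was 2.06 to 2.70 in the 12 OB libraries and 15.4 to 78.8 in the 9 MOE libraries in which Tbx21 was above 0. Eomes was therefore present in MOE with little Tbx21 beside it. Markers of T and NK cells, a group in which both genes can be found, summed over 13 genes to 0.121 to 0.516 FPKM in OB, 0.855 to 2.15 in MOE and 2.60 to 3.99 in VNO. None of the 13 averaged 0.5 FPKM or more in OB or MOE and 2 did in VNO, so these sums are low, and Cd247 was listed at 0 in all libraries. The part of such cells in the Eomes and Tbx21 levels was not tested. Of the other 15 T-box genes, 4 passed the filter of the tissue fit. Compared with MOE none of them was called higher in OB and 3 were called lower, and compared with VNO 1 was called higher and 3 lower. Of all genes, 45.7% and 37.8% were called lower. Mga had 5.92 FPKM in OB and 6.48 in MOE, Tbr1, a factor of cortical and mitral cells, had 0.678 in OB and 0.0255 in MOE, and Tbx18 had 0.425 and 0.0834.

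The windows around the annotated starts of these T-box genes show what sequence the matched pair of promoters holds. RefSeq windows of 300 bases (250 before and 50 after the start, on GRCm38.p6, whose coordinates are not those of mm9) were found for all 7 genes. Capitals mark the T-box motif AGGTGT, the GC box GGGCGG, the CCAAT box CCAAT and the TATA box TATAAA on either strand, which occur in 13.7%, 35.7%, 37.4% and 13.6% of 32851 such windows. The Tbx21 window is chr11:97115282-97115581 on the minus strand and the Eomes window is chr9:118477939-118478238 on the plus strand.
Tbx21: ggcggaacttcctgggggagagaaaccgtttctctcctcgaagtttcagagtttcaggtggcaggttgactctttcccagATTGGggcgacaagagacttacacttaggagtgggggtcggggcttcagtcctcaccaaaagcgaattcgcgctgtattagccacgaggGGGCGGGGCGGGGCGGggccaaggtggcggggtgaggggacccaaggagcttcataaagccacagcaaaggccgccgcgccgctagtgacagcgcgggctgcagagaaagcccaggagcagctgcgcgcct
Eomes: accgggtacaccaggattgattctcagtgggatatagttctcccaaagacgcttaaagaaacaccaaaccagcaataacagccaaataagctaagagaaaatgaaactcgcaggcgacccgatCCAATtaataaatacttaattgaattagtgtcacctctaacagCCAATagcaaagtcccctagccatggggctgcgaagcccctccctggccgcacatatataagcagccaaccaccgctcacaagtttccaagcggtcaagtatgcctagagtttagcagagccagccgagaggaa
The Tbx21 window had 3 overlapping GC boxes and 1 CCAAT box, and 62.0% of its bases were G or C. Eomes had 2 CCAAT boxes and no GC box, at 47.3% G or C, beside a median of 52.7% over all windows. Neither window holds the letters AGGTGT.

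The vesicular glutamate transporters Slc17a6 (VGLUT2) and Slc17a7 (VGLUT1) load glutamate into synaptic vesicles, and they were highest in different tissues. Slc17a7 (chr7:52419291-52431509 of mm9) had 50.9 to 65.8 FPKM in OB with a median of 59.8. In MOE it ran from 0 to 0.308 with a median of 0.0954, and in VNO from 0 to 0.0648, with 7 of 12 VNO libraries listed at 0. All 12 VNO libraries and 6 of 12 MOE libraries were at or below 3 estimated fragments. The mean in MOE was 0.188% of the mean in OB. For comparison, the inhibitory neuron genes Gad1 and Slc32a1 in MOE had 0.131% and 0.0868% of their OB level. These were the lowest of 13 bulb interneuron genes, among which Calb2 had 27.0% and Calb1 178.0%. The fitted difference was 6.62 on the log2 scale between OB and MOE (SE 0.0608) and 6.84 between OB and VNO. As for Tbx21, no p-value is given for these, since the gene passed the filter through OB alone. MOE was called above VNO by 0.23 on that scale (adjusted p = 0.00112 in limma), on 48.2 against 9.0 estimated fragments in all.

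Slc17a6 went the other way. Its level was 3.91 to 6.28 FPKM in OB (median 5.11), 14.1 to 25.1 in MOE (median 23.3) and 5.23 to 8.30 in VNO (median 6.32). Every MOE library was above every OB and VNO library, while OB and VNO overlapped. The MOE mean was 433.0% of the OB mean (log2 difference -2.01 for OB minus MOE, SE 0.0771, adjusted p = 1.18e-20 in limma). The lowest MOE value, 14.1, was that of MOE-CM3, the library with the lowest sum of estimated fragments, and the difference was -2.07 without it. The paper lists MOE-CM3 with the most read pairs of the MOE libraries but the lowest share of reads aligned. OB was also called below VNO, by -0.32 on the log2 scale (adjusted p = 3.43e-04), but without replicate 1 of every group the difference was -0.19 and its adjusted p 0.0706. Slc17a6 is known as the transporter of olfactory sensory neurons, whose defining genes were highest in MOE, with 982.5 FPKM of Omp in MOE, 101.1 in VNO and 35.1 in OB on average. The part of sensory neurons in the Slc17a6 levels was not tested.

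Slc17a7 exceeded Slc17a6 by 9.11 to 14.6 times in the 12 OB libraries (median 11.8), and in MOE the ratio was at most 0.0147. The 4 OB groups had median ratios of 9.76 (SF), 12.7 (SM), 12.1 (CF) and 11.4 (CM), and their ranges overlapped apart from that of SM, which lay wholly above that of CM (12.2 to 13.1 against 10.8 to 11.4). Each gene alone overlapped between SM and CM, where 7.82% of all genes did not. The ratio was not tested, and ratios of other genes were not compared. The other genes of glutamate supply and uptake were mostly higher in OB too. Of 8 tested, 7 were called higher and 1 lower than in MOE, and 7 higher and none lower than in VNO. Of all genes, 39.3% and 48% were called higher. Glul, glutamine synthetase, had 283.7 FPKM in OB and 60.1 in MOE, and the glial uptake carriers Slc1a3 and Slc1a2 had 94.0 and 39.4 in OB. The third vesicular transporter, Slc17a8, had a mean of at most 0.051 FPKM in each tissue.

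Slc17a6 is listed with a pair of transcripts that differ in their start. NM_080853 spans chr7:58877200-58926496 and NM_001355150 spans chr7:58880007-58926496 of mm9, so the latter starts 2807 bases downstream. The downstream transcript was above 0 in all OB libraries but 1, with a median share of 33.0% of the gene's level (0 to 50.2%). In MOE it was listed at 0 in 7 of 12 libraries, with a median share of 0% and a highest share of 34.8%. In VNO it was listed at 0 in 6 of 12 libraries, and its median share was 5.93%. In MOE it was above 0 in all 3 SM libraries (6.40, 4.30 and 8.75 FPKM), in CF2 (3.10) and in CM3 (3.11), and at 0 in all 3 SF libraries. The split thus varied widely within a group, and exact zeros can be a failed split between overlapping transcripts, so the shares are a description and were given no test.

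**Figure D2:**
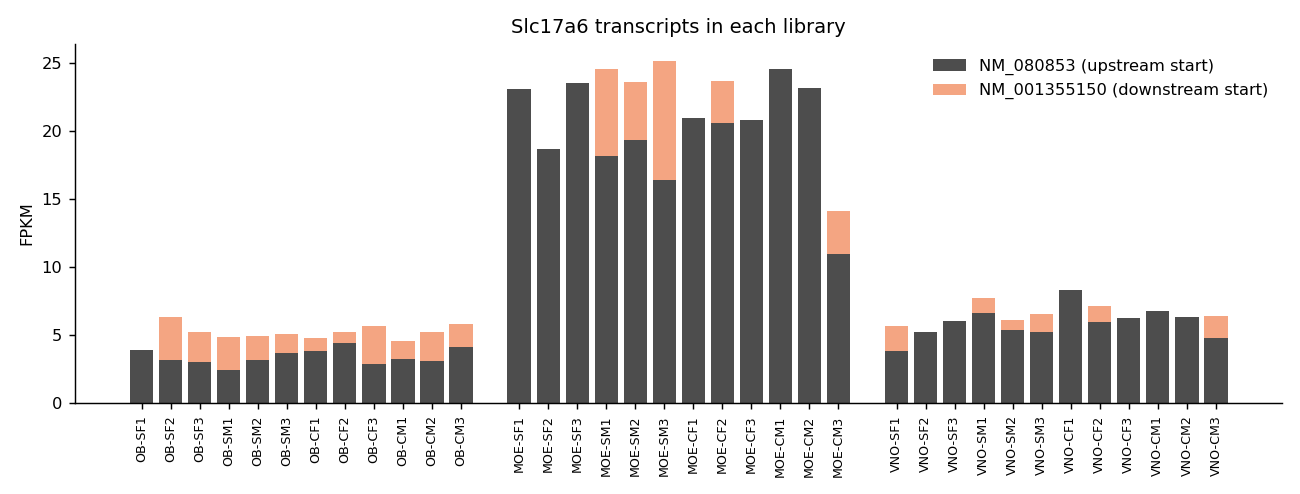
FPKM of the Slc17a6 transcripts in each of the 36 libraries (stacked bars, linear axis from 0), the upstream start in dark gray and the downstream start in orange. MOE bars reach 25.1 FPKM and mostly hold the upstream transcript alone, whereas 11 of 12 OB bars hold both.

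The windows at both starts are shown because the gene is listed with both, together with that of Slc17a7, which has the opposite order of tissues. On GRCm38.p6 the upstream window of Slc17a6 is chr7:51621580-51621879, the downstream one is chr7:51624387-51624686, again 2807 bases apart, and the Slc17a7 window is chr7:45163671-45163970, all on the plus strand. Capitals mark the same motifs as above.
Slc17a6 upstream: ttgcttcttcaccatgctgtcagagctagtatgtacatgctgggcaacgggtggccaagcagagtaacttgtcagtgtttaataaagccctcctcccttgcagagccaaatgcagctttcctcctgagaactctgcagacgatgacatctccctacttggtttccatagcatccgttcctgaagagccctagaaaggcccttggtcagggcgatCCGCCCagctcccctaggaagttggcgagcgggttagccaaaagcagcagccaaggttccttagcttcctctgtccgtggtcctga
Slc17a6 downstream: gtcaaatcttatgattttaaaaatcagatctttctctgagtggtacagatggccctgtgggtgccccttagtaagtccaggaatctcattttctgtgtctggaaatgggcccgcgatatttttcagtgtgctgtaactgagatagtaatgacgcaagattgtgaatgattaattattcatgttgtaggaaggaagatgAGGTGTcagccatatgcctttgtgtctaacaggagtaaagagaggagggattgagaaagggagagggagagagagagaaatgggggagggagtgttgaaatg
Slc17a7: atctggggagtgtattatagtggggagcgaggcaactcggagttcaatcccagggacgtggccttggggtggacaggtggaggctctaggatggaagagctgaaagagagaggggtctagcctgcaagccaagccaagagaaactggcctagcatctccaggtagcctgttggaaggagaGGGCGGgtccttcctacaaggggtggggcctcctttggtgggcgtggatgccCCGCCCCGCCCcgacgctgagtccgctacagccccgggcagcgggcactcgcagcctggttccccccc
The upstream Slc17a6 window (53.7% G or C) had 1 GC box on the opposite strand. The downstream window was poorer in G and C (43.0%), had no GC box, and was the only one of the 8 windows of the 7 genes with a T-box motif, at positions -52 to -47 from the start. Slc17a7 had 3 GC boxes, a pair of them overlapping, at 63.7% G or C. None of the 8 windows holds TATAAA. These matches describe letters and not sites of binding.

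Cdhr1, a cadherin also known from photoreceptors and strongly expressed in mitral and tufted cells, lies at chr14:37891035-37911497 of mm9. Its level was 18.9 to 27.1 FPKM in OB (median 25.2), 2.68 to 4.82 in MOE (median 3.86) and 2.94 to 5.39 in VNO (median 3.79). OB stood apart from both other tissues, and MOE and VNO overlapped over most of their range. OB was 6.17 times MOE (log2 difference 2.49, SE 0.0785, adjusted p = 6.83e-23 in limma) and 6.11 times VNO (2.48, adjusted p = 7.48e-23). The difference between MOE and VNO was -0.01 (95% interval -0.168 to 0.153, adjusted p = 0.934). Unlike Tbx21 and Slc17a7, Cdhr1 had 225.1 to 411.0 estimated fragments in each MOE library, well above the floor.

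Reln encodes reelin, a large secreted glycoprotein that guides neuronal positioning, and lies at chr5:21390272-21850523 of mm9. In OB, 5 of 12 libraries carried an entry that Cufflinks did not mark as OK (23.8 to 29.3 FPKM as listed), and the fit left them out. The other 7 ran from 23.6 to 30.9 with a median of 25.5. MOE ran from 0.853 to 1.5 and VNO from 1.79 to 2.78, so that the tissues were in the order OB, VNO, MOE without overlap. Reln was 22.2 times higher in OB than in MOE (log2 difference 3.97, SE 0.0795, adjusted p = 2.24e-24 in limma, 7 against 12 libraries) and 11.5 times higher than in VNO (3.24, adjusted p = 1.80e-22). MOE was below VNO by -0.73 on the log2 scale (adjusted p = 1.49e-10), the one call of the 7 genes with MOE lower than VNO.

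The reelin pathway genes did not share the Reln pattern as a group. Of 12 tested, 7 were called higher and 4 lower in OB than in MOE, and 8 higher and 4 lower than in VNO. Of all genes, 39.3% and 48% were called higher. The medians of the 12 were 0.32 and 0.42 on the log2 scale. The intracellular adaptor Dab1 had the tissue order of Reln, with 8.02 FPKM in OB, 0.0768 in MOE and 1.32 in VNO. The receptor gene Lrp8 had 7.72, 1.77 and 3.78, whereas the receptor gene Vldlr had 4.52, 2.84 and 5.14. Fyn, a kinase that phosphorylates the adaptor, had 29.6, 2.79 and 3.78. Pafah1b1 (67.1, 56.3 and 31.3) and Ndel1 (18.1, 27.3 and 14.0), which act on the dynein motor, were present in all 3 tissues.

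Cck encodes the neuropeptide cholecystokinin, which in the bulb is best known from tufted cells, and lies at chr9:121398942-121404812 of mm9. Its level was 108.3 to 149.2 FPKM in OB (median 127.7), 1.80 to 3.55 in MOE (median 2.64) and 0 to 1.16 in VNO (median 0.191). The tissues did not overlap. The VNO value of 1.16 was that of VNO-SF2, and the next highest VNO library had 0.441. OB was 48.0 times MOE (log2 difference 5.36, SE 0.134, adjusted p = 1.56e-25 in limma) and above VNO by 7.46 on the log2 scale (adjusted p = 3.11e-29), while MOE was above VNO by 2.1 (adjusted p = 9.49e-15). The MOE level rested on 12.1 to 31.1 estimated fragments per library. A second listed transcript, NM_001284508, was at 0 in all 36 libraries.

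Of 7 tested genes of cholecystokinin receptors and peptide processing, 6 were called higher and none lower in OB than in MOE. Against VNO, 6 were higher and 1 lower. Of all genes, 39.3% and 48% were called higher. The receptor gene Cckbr had 6.09 FPKM in OB, 0.0364 in MOE and 0.033 in VNO. Cckar, the other receptor, had a mean of 0.00333 in OB and did not pass the filter. Among the processing enzymes, the convertase Pcsk2 had 17.0 FPKM in OB and 0.656 in MOE, and the carboxypeptidase Cpe had 341.0 and 68.9. Pam, which amidates peptides, had 23.97 in OB, 24.8 in MOE and 46.2 in VNO.

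Between MOE and VNO, 5 of the 7 genes were called, in a fit that called 82.6% of all genes (48.6% higher and 34% lower in MOE). Eomes, Slc17a6, Slc17a7 and Cck were higher in MOE and Reln was lower. Tbx21 and Cdhr1 were not called, although both were called under upper quartile scaling (-0.09 and -0.28), which shifted the median of all genes by -0.23.

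**Figure D3:**
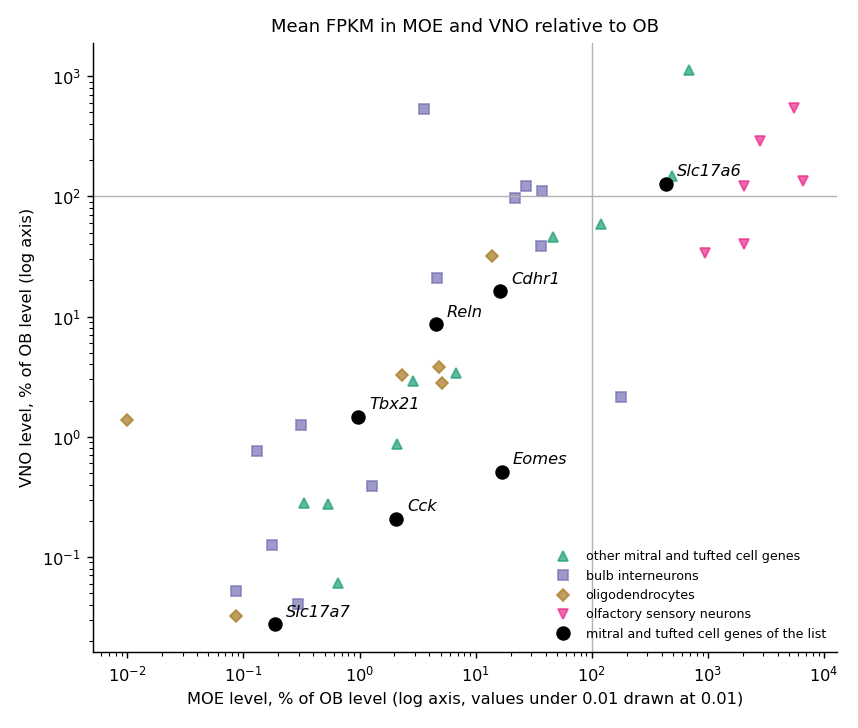
Mean level in MOE (horizontal) and in VNO (vertical) as a percentage of the mean in OB, both on log axes, for the 7 genes (black, named) and for genes of other lists, with lines at 100%. Slc17a7 lies lowest at 0.188% and 0.0274%, and Slc17a6 is the one named gene past both lines, at 433.0% and 128.0%.

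A second list held 17 genes described in mitral and tufted cells. Of 12 that passed the filter of the tissue fit, 7 were called higher and 4 lower in OB than in MOE. Against VNO, 9 were higher and 3 lower. Of all genes, 39.3% and 48% were called higher. Doc2g, which encodes a protein with C2 domains, had 118.5 FPKM in OB and 0.396 in MOE, and the neuropeptide gene Nmb had 54.8 and 3.73. Olfm1 had 67.6 in OB and 80.5 in MOE. Spp1 and Lhx2 were higher outside the bulb, at 683.0% and 488.0% of the OB level in MOE and 1120.0% and 148.0% in VNO. Bulb interneuron genes, which mark the far more numerous granule and periglomerular cells, summed to 452.7 to 584.8 FPKM over 13 genes in OB. Genes of cortical excitatory neurons, which the dissection could include, summed to 63.9 to 86.0 over 11 genes, led by Mef2c (36.3), Camk2a (20.2) and Nrgn (11.2), while the mean of Neurod6 in OB was 0.528. Slc17a7, Reln and Cck are also expressed in cortical neurons, and the part of such cells in the OB levels was not tested.

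Genes most like each member were taken as those with the smallest root mean square difference of centred log2(FPKM + 0.5) over the 36 libraries, among 14627 genes. For Tbx21 these were Sstr3 (0.1), Krt12 (0.114) and Ankrd34c (0.114). Eomes was followed most closely by Susd4 (0.189), Lrrtm4 (0.202) and Slc2a3 (0.265), and Slc17a7 by Camkv (0.153), Mlc1 (0.167) and Kcnj4 (0.183). Those nearest to Slc17a6 were Cadps2 (0.136), Pde6d (0.149) and Cxadr (0.15). Map1a (0.152), Rnf157 (0.165) and Cnnm1 (0.173) were nearest to Cdhr1, and Lrrc4 (0.146) and Chd5 (0.159) were among those nearest to Reln over the 31 libraries with a value. Cck had the most distant neighbours, Scg2 (0.369), Synpr (0.51) and 6330403K07Rik (0.519). Within the list, the gene nearest to Tbx21 was Cdhr1 (0.426), the gene nearest to Reln was Tbx21 (0.372 over 31 libraries), and Slc17a6 was farthest from any other member, at 1.86 from Cdhr1. The measure is dominated by the difference between tissues, and the pseudocount shrinks that difference for genes with low values. Nearness is therefore not an equal fold change. Cnnm1 had 2.89 FPKM in OB and 0.0635 in MOE, beside 24.1 and 3.90 for Cdhr1.

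The study was designed around sex and housing. In OB none of the 7 genes was called between SF and SM, CF and CM, SF and CF, SM and CM, or in the interaction of sex and housing, by limma. The fit called 0.0391%, 0.0469%, 0.00781%, 0% and 0.00781% of 12796 genes in these comparisons, so a count of 0 is near the background. At an unadjusted p under 0.05 there was 1 of the 7 in CF minus CM, 1 in SM minus CM and 1 in the interaction, Cdhr1 each time, beside 5.69%, 3.4% and 4.13% of all genes. There was none in SF minus SM and none in SF minus CF, beside 4.59% and 2.8%. Weighting the libraries by their estimated quality gave 2 calls in SF minus SM, 1 in CF minus CM, 3 in SM minus CM and 1 in the interaction, from Eomes, Slc17a7 and Cdhr1. The same weights raised the calls over all genes to 1411, 689, 3147 and 413. The 4 comparisons share groups pairwise and are not independent. The 95% intervals of the 4 comparisons reached 0.184 to 0.34 to either side of the estimate on the log2 scale.

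**Figure D4:**
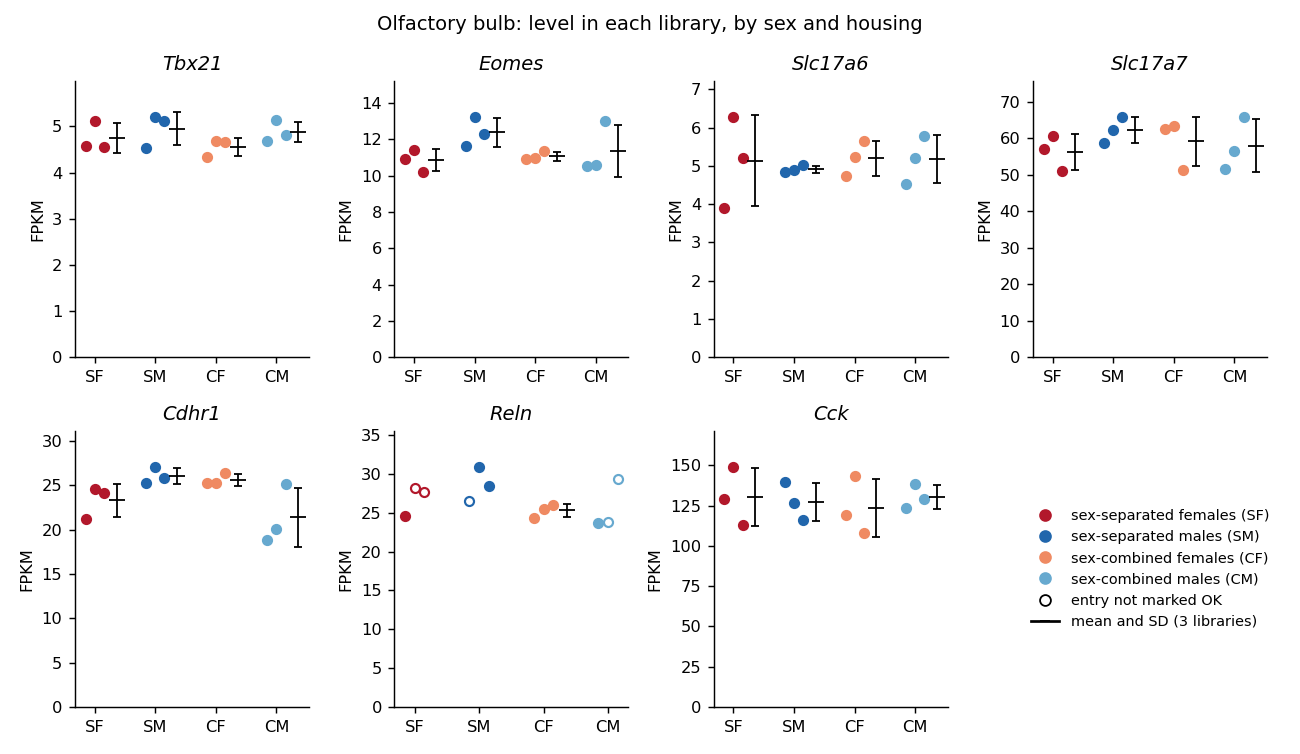
FPKM of each gene in the 12 OB libraries by group (linear axes from 0), with the mean and SD beside groups of 3 values and open points for Reln entries not marked as OK. Cdhr1 in CM holds the lowest points (18.9 and 20.1), and most other groups overlap.

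The values of Cdhr1 in OB were 21.2, 24.5 and 24.1 FPKM in SF, 25.3, 27.1 and 25.8 in SM, 25.2, 25.20 and 26.3 in CF, and 18.9, 20.1 and 25.16 in CM. All 3 SF libraries were below all 3 SM libraries, whereas all 3 CF libraries were above all 3 CM libraries, by a margin of 25.20 against 25.16. CM1 and CM2 were lower than every other library. The means were 23.3 ± 1.83 in SF, 26.0 ± 0.933 in SM, 25.6 ± 0.641 in CF and 21.4 ± 3.34 in CM (SD, n = 3). Females were below males by -0.16 on the log2 scale when separated (unadjusted p = 0.16, adjusted p = 1.0 in limma) and above them by 0.27 when combined (unadjusted p = 0.029, adjusted p = 0.865 in limma). SM was above CM by 0.29 (unadjusted p = 0.0188, adjusted p = 1.0 in limma). The interaction was -0.43 (95% interval -0.757 to -0.096, unadjusted p = 0.0154, adjusted p = 0.999 in limma), so the difference did not pass the correction over all genes. In MOE the Cdhr1 interaction was -0.46 (unadjusted p = 0.0862, adjusted p = 0.999 in limma) and in VNO it was 0.22 (unadjusted p = 0.395, adjusted p = 0.92 in limma). Beside the Cdhr1 values, the bulb interneuron genes summed to 452.7 to 540.8 FPKM in SF, 513.0 to 584.8 in SM, 469.3 to 534.6 in CF and 482.6 to 554.5 in CM, and their part in the result was not tested.

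Eomes in OB had 10.9, 11.4 and 10.2 FPKM in SF and 11.7, 13.2 and 12.3 in SM. Separated females were therefore below separated males in every library (-0.18 on the log2 scale, 95% interval -0.392 to 0.026, adjusted p = 1.0 in limma). The combined groups, with 10.9, 10.96 and 11.4 in CF and 10.5, 10.6 and 13.0 in CM, overlapped (-0.03, 95% interval -0.24 to 0.178). Eomes and Cdhr1 were the 2 genes without overlap between SF and SM, where 8.6% of 12795 genes did not overlap. Tbx21 was the other gene beside Cdhr1 without overlap between CF and CM (10.2% of all genes), with 4.34, 4.69 and 4.65 FPKM in CF and 4.69, 5.13 and 4.82 in CM, at a log2 difference of -0.09 (95% interval -0.272 to 0.095). The closest Tbx21 values, 4.687 in CF2 and 4.693 in CM1, differed by less than 1 estimated fragment would add. Between SF and CF (5.86% of all genes) and between SM and CM (7.82%), Cdhr1 alone did not overlap.

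Slc17a6, Slc17a7 and Cck overlapped between the groups in all 4 comparisons in OB. The means of Slc17a7 were 56.3 ± 4.95 in SF, 62.3 ± 3.49 in SM, 59.2 ± 6.75 in CF and 58.0 ± 7.19 in CM (SD, n = 3), and those of Cck were 130.4 ± 18.1, 127.2 ± 11.9, 123.7 ± 18.0 and 130.3 ± 7.27 in the same order. Slc17a6 in SF had the widest spread, from 3.91 to 6.28 FPKM, and in SM the narrowest, from 4.84 to 5.01. For Reln the fit kept 1 SF, 2 SM, 3 CF and 1 CM libraries, with values of 24.5 in SF, 30.9 and 28.5 in SM, 24.4, 25.5 and 26.0 in CF and 23.6 in CM. With the entries not marked as OK kept as listed, the means were 26.8 in SF, 28.6 in SM, 25.3 in CF and 25.6 in CM. Neither overlap nor spread could be assessed in groups of 1, and no difference between groups is read from Reln.

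**Figure D5:**
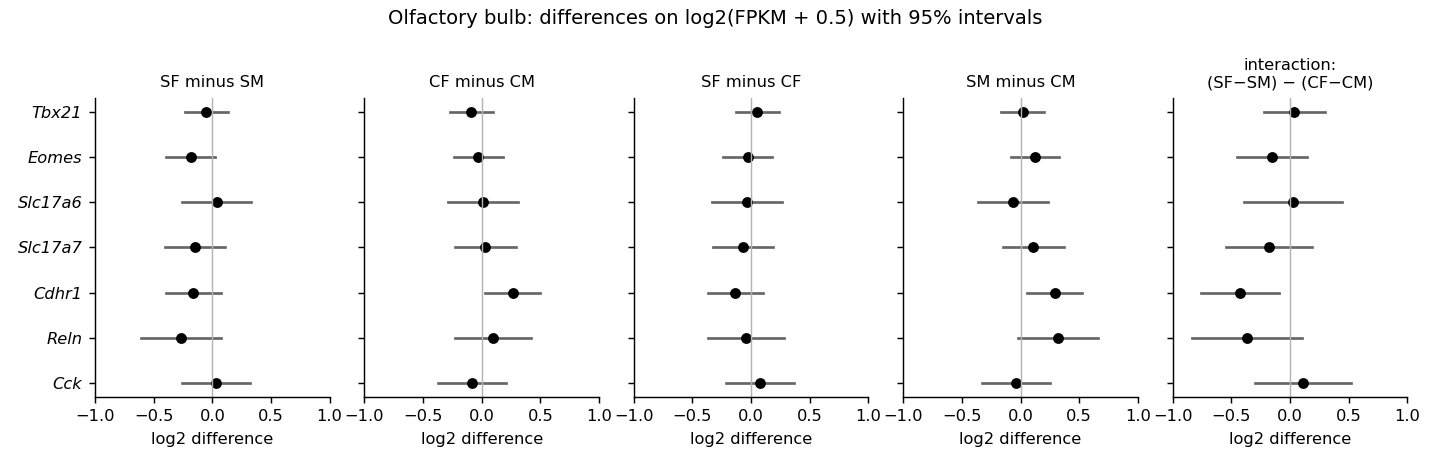
Differences between groups in OB on the log2(FPKM + 0.5) scale for the 7 genes (points) with 95% intervals from limma (lines), for the 4 comparisons of sex and housing and their interaction. The interval of Cdhr1 excludes 0 in CF minus CM, SM minus CM and the interaction, before any adjustment, and those of the other 6 genes include 0. Reln rests on 1 to 3 libraries a group, with groups of 1 assumed to vary like the others.

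In MOE, 5 of the 7 genes passed the filter within the tissue (Eomes, Slc17a6, Cdhr1, Reln and Cck) and none was called in the 5 comparisons by limma, where the fit called 0.0945% (SF minus SM), 0.0436% (CF minus CM), 0.0509% (SF minus CF), 0.0654% (SM minus CM) and 0.0363% (interaction) of 13762 genes. None had an unadjusted p under 0.05, beside 4.17%, 1.76%, 2.03%, 6.95% and 4.61% of all genes in the same order. Slc17a6 had 23.1, 18.7 and 23.5 FPKM in SF and 24.5, 23.6 and 25.1 in SM, without overlap (14.2% of all genes; log2 difference -0.17, 95% interval -0.613 to 0.273). Cck had 2.65, 1.80 and 2.17 in SM and 3.22, 3.55 and 2.66 in CM, also without overlap (13.4% of all genes; -0.43, 95% interval -0.872 to 0.008, adjusted p = 0.698 in limma). The 5 genes overlapped between CF and CM (4.14% of all genes did not) and between SF and CF (10.4% did not). The closest of the Cck values, 2.65 and 2.66, differed by less than 1 estimated fragment would add.

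In VNO, 3 of the 7 genes passed the filter (Slc17a6, Cdhr1 and Reln), and none was called by limma, where the fit called 0.0722%, 0.0433%, 0%, 0% and 0% of 13850 genes in the same order of comparisons. Slc17a6 had 5.65, 5.23 and 6.02 FPKM in SF, 7.70, 6.05 and 6.54 in SM, 8.30, 7.08 and 6.21 in CF, and 6.74, 6.26 and 6.38 in CM. All SF libraries were below all SM and all CF libraries, where 14.5% and 15.6% of all genes did not overlap. SF was lower than CF by -0.32 on the log2 scale (95% interval -0.557 to -0.084, unadjusted p = 0.012, adjusted p = 0.406 in limma; -0.56 with an adjusted p of 0.0653 when scaled to the same total FPKM, -0.22 with 0.944 when scaled by the upper quartile, and -0.22 with 0.622 without CF replicate 1) and lower than SM by -0.24 (unadjusted p = 0.0476, adjusted p = 0.562 in limma). Between CF and CM (8.7%) and between SM and CM (7.94%) the 3 genes overlapped. The Slc17a6 interaction was -0.38 (unadjusted p = 0.0303, adjusted p = 0.895 in limma). At an unadjusted p under 0.05 Slc17a6 was the only one of the 3 in these comparisons, which held 11%, 8.8% and 5.26% of all genes, and none of the 3 was found in CF minus CM (3.94%) or SM minus CM (2.32%). Of 9 genes of olfactory sensory neurons none was called by limma in these comparisons, and 5 had an unadjusted p under 0.05 in SF minus CF and 5 in SF minus SM. Their summed levels were 125.6 to 151.2 FPKM in SF, 153.3 to 189.0 in SM, 157.5 to 196.0 in CF and 151.0 to 184.8 in CM. Those of vomeronasal sensory neurons summed to 102.1 to 114.7 in SF, 101.0 to 122.2 in SM, 122.6 to 126.8 in CF and 109.2 to 127.2 in CM. The part of either cell type in the Slc17a6 values was not tested.

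Joint variation between pools was examined over the OB libraries, and 21 pairs of the 7 genes were compared. Pearson's r was positive in 19 pairs, with a median of 0.38 and a range of -0.17 to 0.99. The 21 pairs come from 7 genes and are not independent. Pairs of other genes were not compared, so the count of positive pairs is not read as particular to these genes. After Benjamini-Hochberg adjustment 1 pair passed, Eomes with Reln (r = 0.991, exact permutation p = 1.98e-04, adjusted p = 0.00416, and Spearman's rho = 1.0, exact p = 3.97e-04, adjusted p = 0.00834; n = 7 libraries). The 7 libraries were spread unequally over the 4 groups. Without the 2 libraries farthest from the Eomes median, r was 0.915. With the Reln entries not marked as OK kept as listed, r was 0.785 over 12 libraries (adjusted p = 0.0441 in a permutation test). The next largest were Tbx21 with Reln (r = 0.879, falling to 0.25 without the 2 farthest libraries), Cdhr1 with Reln (0.696) and Eomes with Slc17a7 (0.663), none of which passed. With the group means removed, the pair of Eomes and Reln could not be tested. Of 15 pairs 1 was under 0.05, Eomes with Cdhr1 (r = 0.782, adjusted p = 0.0484 in a permutation test). That permutation moved the centred values freely between groups, which can make p too small, so no call is read from this pair. The libraries share the scaling to total fragments, and when each was scaled to the same summed FPKM 7 pairs passed and all 21 were positive.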

How the data were processed

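The 36 deposited tables hold FPKM values that the authors made from paired reads with TopHat2 2.1.0 and Cufflinks 2.2.1.0 on mm9, per the labels, with confidence limits and a status for each transcript. These were used as deposited, without rescaling. Transcripts were assigned to symbols by RefSeq accession (99.7% of entries) and summed by gene, and entries not marked OK were left out. Fragments were estimated as (FPKM/SE) squared, with the SE from the 95% limits. The limits can also hold the uncertainty of splitting fragments between transcripts, so the estimates are rough for genes with a pair of transcripts. Slc17a6 had 326.3 estimated fragments at 3.91 FPKM in OB-SF1 but 276.3 at 6.28 FPKM in OB-SF2.

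Values were tested with limma 3.58.1 in R 4.3.3 (eBayes with trend, two-sided, Benjamini-Hochberg over all genes) after adding a pseudocount of 0.5 and taking log2. Each tissue had its own fit with 4 groups, a further fit over the 36 libraries compared tissues, and genes averaging under 0.5 FPKM were dropped. Tests were run on simulated data first. The p-values measure the spread between pooled libraries. Correlations were tested with scipy 1.17.1, exactly for n under 10 and otherwise with 100000 resamples.

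The 7 genes and the 13 other lists were chosen with earlier results of these data known. Named from each list were the 3 genes highest in OB, the 3 genes most like each of the 7, and genes called within a tissue. Dab1, Lrp8, Vldlr, Cckbr, Cckar, Slc17a8, Spp1, Lhx2, Slc32a1, Calb1, Cd247 and Neurod6 were named after their values were seen. Some genes that this rule names are not reported here.

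Replicate numbers were not treated as pairs. Same-numbered libraries of different groups deviated together with a mean r of 0.022 in MOE, 0.006 in OB and 0.064 in VNO. Between tissues of the same sex and housing it was 0.008, beside -0.004 for different numbers. The paper took MOE, VNO and OB from each mouse, so libraries of different tissues can share animals, which the main tissue fit did not model. Amino acid sequences were not used here.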

Additional observations from a re-analysis of the deposited data

Results flagged for a closer look

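The observed female-male difference of Cdhr1 in OB differed in direction between the housings, and neither difference was called. All 3 SF libraries were below all 3 SM libraries, and all 3 CF libraries were above all 3 CM libraries. Of all genes, 8.6% and 10.2% did not overlap in these comparisons. The difference of the differences was -0.43 on the log2 scale (unadjusted p = 0.0154), and it did not pass the adjustment over 12796 genes (adjusted p = 0.999 in limma). Over the alternatives tried it ranged from -0.63 to -0.34, with adjusted p-values from 0.0328 to 1.0 in limma. The value of 0.0328 came from library weights, the one setting under 0.05, which also raised the calls over all genes. The result rests on 2 low values in CM (18.9 and 20.1 FPKM), and the third CM library (25.16) was level with CF.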

How the results depend on the processing

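The 7 tissue calls between OB and MOE and between OB and VNO kept their direction under other pseudocounts, scalings, weights and fits on fewer libraries, except that Slc17a6 between OB and VNO lost its call without replicate 1 of each group. The small difference of Cdhr1 between MOE and VNO, -0.01, changed sign with library weights (0.0668), without MOE-CM replicate 3 (0.0106, chosen after seeing the data) and without replicate 1 (0.0631), and ranged from -0.0799 to 0.0631 when a replicate number was left out. Within tissues none of the 7 genes was called under any alternative apart from library weights in OB, which gave 2 calls in SF minus SM, 1 in CF minus CM, 3 in SM minus CM and 1 in the interaction. The cause was not tested. Cdhr1 was then at 0.35 in CF minus CM (adjusted p = 0.0277 in limma), 0.35 in SM minus CM (adjusted p = 0.00218) and -0.46 in the interaction (adjusted p = 0.0328).

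With the replicate number as a block, 0 of the 7 genes were called within each tissue and 7, 7 and 5 between tissues, so the pairing changed no call. Of 21 correlated pairs in OB, 7 passed when libraries were scaled to the same total FPKM, and 0 to 1 passed when a replicate number was left out, where pairs with Reln had too few libraries to be tested; the pair that passed without replicate 3 was Slc17a7 with Cdhr1 (adjusted p = 0.0279 in an exact permutation test). With group means removed, 1 of 15 pairs had an adjusted p under 0.05, but that permutation can make p too small.

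Scaling to the same total FPKM moved the median of all genes by -0.14 in SF minus SM and 0.11 in SM minus CM in OB, by -0.14 in SM minus CM in MOE, and by -0.22 in SF minus CF in VNO. Depth limits Tbx21 and Slc17a7 in MOE and VNO and Eomes and Cck in VNO, where a library held at most 11.1 estimated fragments of each.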

Other observations

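Beside the projection neuron genes, other cell types gave the following counts between tissues in limma. Of all genes, 39.3% were called higher and 45.7% lower in OB than in MOE, and 48% higher and 37.8% lower than in VNO. Of 6 oligodendrocyte genes, 6 were called higher in OB than in MOE and 6 higher than in VNO, among them Mbp (150.6 FPKM in OB) and Cnp (31.6). Of 6 genes of astrocytes and ensheathing glia, 5 were called higher and 1 lower in OB in both comparisons. Bulb interneuron genes were called higher in OB than in MOE in 12 of 13 cases and lower in 1, and than in VNO in 9 cases and lower in 2. All 9 genes of olfactory sensory neurons were called lower in OB than in MOE. Of the genes in the 13 other lists, Gad1 was the one called within a tissue, lower in SF than in SM in VNO, where its mean level was 1.36 FPKM against 179.6 in OB.

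Reln and Eomes, like Slc17a6, are each listed with a pair of transcripts whose split varied between libraries. In OB the Eomes transcript NM_010136 took 67.4% to 100% of the gene's level, with a median of 79.0%. In MOE it took 35.9% to 100%, with a median of 100%. The Reln transcript NM_001310464 took 11.2% to 100% in OB and at least 86.9% in every VNO library. These shares were not compared between groups.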
